A study of Mus musculus with 8 samples.

Results

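Tumor cells exposed to interferon-γ (IFNγ) change how they use the amino acids tryptophan and arginine. The genes described here are 9 effectors of that change, chosen by name with earlier results of these data known. Ido1, Ido2, Kynu and Wars act on tryptophan. Nos2, Ass1, Asl and Arg2 act on arginine, and Gch1 makes the cofactor that Nos2 needs. Of the 9 genes, 8 had 1 row in each of the deposited tables, which together hold 23998 genes and unnamed loci. Kynu, the kynureninase that acts downstream of Ido1, has no row in either table and is given no value.

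MC38, a colon adenocarcinoma line of the mouse, was profiled by RNA-seq in 4 groups of 2 samples. Control cells (labeled wild type) and DENR KO cells were each taken after 20 ng/ml IFNγ for 4 h and untreated. DENR, a translation reinitiation factor, was removed with lentiviral Cas9 and sgRNA, and the study asked which signaling pathway links DENR to PD-L1. The sources do not settle whether the numbered DENR KO samples carry different sgRNAs or are cultures of 1 line, and the study calls the treated samples independent without saying at which step they were separated. P-values measure the spread between these samples.

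Ido1 and Ido2 open the indole ring of tryptophan, the first step of the kynurenine pathway, which depletes tryptophan and yields products that restrain T cells. Wars charges tRNA with tryptophan and is well known as an IFNγ-induced gene, and its product keeps protein synthesis running when tryptophan is scarce. Nos2, the inducible nitric oxide synthase, turns arginine into nitric oxide and citrulline. Ass1 and Asl turn citrulline back into arginine, Arg2 (mitochondrial arginase) splits arginine into ornithine and urea, and Gch1 catalyzes the first step of tetrahydrobiopterin synthesis. IFNγ signals to its target genes through Janus kinases and the transcription factors that they activate or induce.

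DENR, with its partner MCTS1, helps ribosomes that have translated a short upstream open reading frame (uORF) to start again, and uORFs in which a stop codon directly follows the start codon depend on it most. The annotated 5′ UTRs of the 9 genes (GENCODE M21, GRCm38, basic protein-coding transcripts) were therefore searched for uORFs. Nos2 was the 1 gene of 9 with such a start-stop uORF. This share is like the 10.9% of the 20857 genes searched, so the count does not set the 9 genes apart. The principal Nos2 transcript carries 2 of them in a 5′ UTR of 333 nucleotides. Both are shown with 6 flanking bases on each side, since DENR is known to act on uORFs of this kind. Whether it acts on these 2 was not tested. Capitals mark the start and stop codons, and both lie on the plus strand of chromosome 11 in GRCm38.
Nos2 first start-stop uORF, chr11:78929773-78929790: agctgcATGTGAcatcga
Nos2 second start-stop uORF, chr11:78929797-78929814: cacagtATGTGAggatca
The first ends 125 nucleotides before the main start codon and the second 101 nucleotides before it. In the same transcript, 3 further upstream start codons share the stop codon of the first, as uORFs of 90, 69 and 33 nucleotides. A sixth upstream start codon, at position 266 of the 5′ UTR, lies between both start-stop uORFs and the main start codon and has no stop codon inside the 5′ UTR. The other Nos2 transcript, with a 5′ UTR of 255 nucleotides, has 1 uORF of 45 nucleotides and no start-stop uORF.

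None of the 3 annotated Wars transcripts and neither Ido2 (5′ UTR of 85 nucleotides), Gch1, Arg2 nor Kynu has an upstream ATG. The principal Ido1 transcript has a single upstream ATG with no stop codon inside its 70-nucleotide 5′ UTR, whereas the other transcript, with 439 nucleotides, has 5 uORFs. Ass1 has 1 uORF of 57 nucleotides. Of the 3 Asl transcripts, 1 has none and the others have 3 and 6. A complete uORF was thus present in 4 of the 9 genes and in 54.2% of all genes searched. These are features of the annotation. The tables hold 1 value per gene, so the transcript in use in MC38 cells is not known, and RNA-seq does not measure translation.

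**Figure D1:**
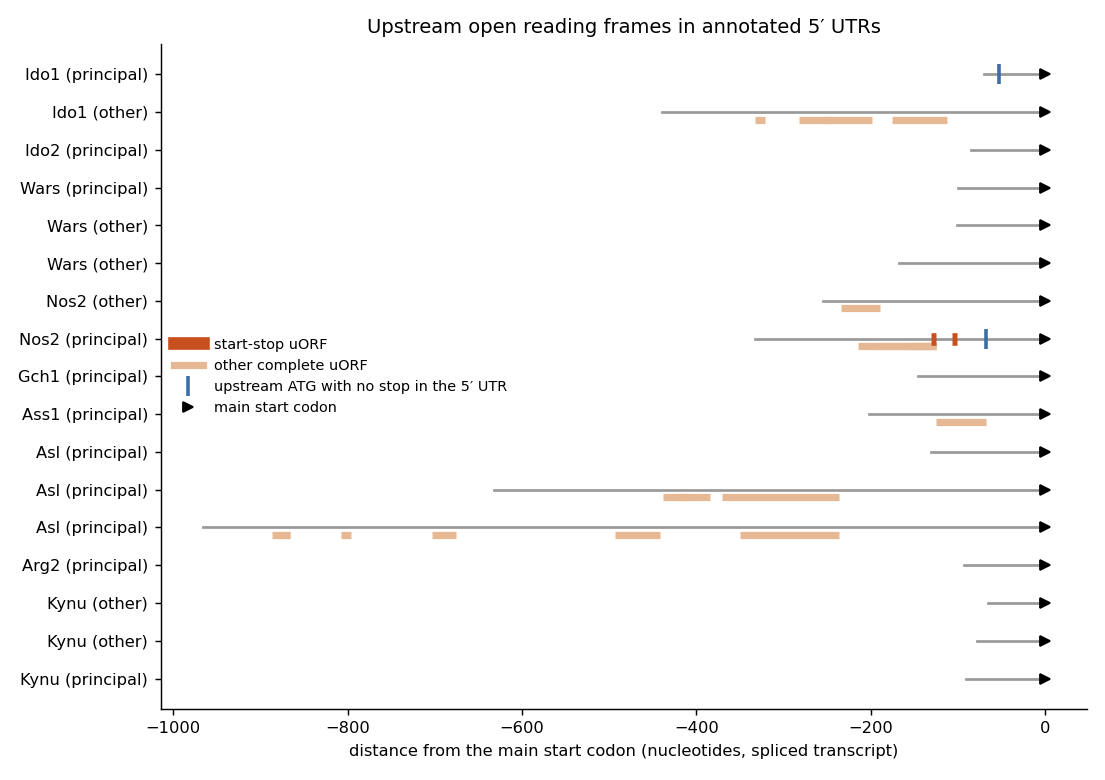
Each grey line is the annotated 5′ UTR of 1 transcript, drawn to scale in nucleotides of the spliced transcript and ending at the main start codon (black triangle). Dark orange blocks are start-stop uORFs, light orange blocks (drawn just under the line, overlapping ones merged) are other complete uORFs, and blue ticks are upstream start codons with no stop codon in the 5′ UTR. The 2 start-stop uORFs are in the principal Nos2 transcript, and the 3 Wars transcripts have no mark.

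Promoter windows (250 bases before to 50 bases after the start, RefSeq, GRCm38.p6) could be matched for Ass1 and Gch1. Neither window holds, on either strand, the letters TTCNNNGAA (GAS, bound by STAT factors), GAAANNGAA (IRF factors), GGGANTTTC (NF-κB) or TGATGNAA (ATF4). These occur in 8.30%, 8.56%, 1.11% and 3.97% of the 32851 promoters in the table. At such shares, finding none in 2 windows says little about these genes.

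Depth was even, at 17369020 to 18403790 reads on genes per sample. A normalized count is the reads on a gene divided by 1 size factor per sample, and the factors ran from 0.976 to 1.02. Denr itself had normalized counts of 1438 and 1401 in control and 946 and 957 in DENR KO cells with IFNγ, and of 1448 and 1297 in control and 943 and 916 in DENR KO cells without it. Denr mRNA in DENR KO cells was thus 67.0% and 67.7% of control, and it was called lower in both tables (limma, adjusted p = 8.2e-06 and 1.1e-04), while Cas9 edits need not remove the mRNA. Of 7 macrophage markers, Adgre1 and Fcgr1 have no row, 4 stayed under 10 normalized counts in every sample, and Cd14 alone was higher, at 342 to 481. The 5 fibroblast markers summed to 18292 and 18542 in control and 17175 and 16728 in DENR KO cells with IFNγ, and to 20109 and 19559.5 in control and 18202 and 18832 in DENR KO cells untreated. Without Dcn the other 4 overlapped between the genotypes, at 11925 to 12472 in control and 12069 to 12853 in DENR KO cells with IFNγ and at 14851 to 15671 and 14312 to 15345 untreated. Of 4 T cell markers 3 have no row and the other stayed under 10, and the 3 endothelial markers stayed under 25. Of the 7 epithelial markers, Epcam and Cdx2 have no row and the other 5 stayed under 25 normalized counts, so the epithelial markers of the labeled colon adenocarcinoma were absent or near 0. Dcn (log2 difference of -0.47 with IFNγ and -0.31 untreated) and Pdgfrb (0.43 with IFNγ) were called among the fibroblast markers (adjusted p = 4.2e-05, 0.013 and 0.0085), and their part in the results below was not tested.

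With IFNγ, DENR KO cells held less mRNA of both tryptophan-degrading enzymes, of the tryptophanyl-tRNA synthetase and of the inducible nitric oxide synthase. Ido1 stood at 37.8% of control, Ido2 at 48.6%, Wars at 53.5% and Nos2 at 58.5%. In bulk RNA, fewer cells expressing a gene and less mRNA per cell cannot be told apart. The arginine-recycling enzymes Ass1 and Asl and the cofactor enzyme Gch1 did not pass the test, and Arg2 was near 0. Of the 8 genes, 7 had enough counts to be tested (normalized counts averaging 10 or more over the 4 samples), and 4 of the 7 were called lower and 0 higher with limma on log2(normalized count + 1) at an adjusted p under 0.05. Over all 13928 genes tested, 2.25% were called lower and 1.8% higher. Each log2 difference below is DENR KO minus control on that scale, which understates changes of low genes.

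Wars had normalized counts of 13434 and 13516 in the control samples and of 7189 and 7219 in the DENR KO samples. The groups lay far apart and each pair of samples nearly coincided. The log2 difference was -0.90 (SE 0.050, limma adjusted p = 1.8e-11), and Wars had the 7th smallest p among the 314 genes called lower.

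Nos2 had 6737 and 6656 in control and 3934 and 3902 in DENR KO cells. Both DENR KO samples were below both control samples, as for 20.8% of all genes, again with little spread within a pair. Its log2 difference was -0.77 (SE 0.055, limma adjusted p = 1.4e-09).

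Ido1 had 907 and 905 in control and 305 and 379.9 in DENR KO cells. The fall was the deepest of the 7 genes tested, and the DENR KO samples differed from each other more than the control samples did. Its log2 difference was -1.41 (SE 0.10, limma adjusted p = 2.1e-09), and its call was lost when the spread was estimated over all 8 samples (adjusted p = 0.39), a fit that takes in the untreated values of 0 and 2 reads.

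Ido2, which lies next to Ido1 on chromosome 8 (Ido2 at chr8:24531892-24576333 and Ido1 at chr8:24584136-24597009, both on the minus strand), had 396 and 411 in control and 184 and 208 in DENR KO cells. The pairs did not overlap, as for 20.8% of all genes in this direction. Its log2 difference was -1.04 (SE 0.12, limma adjusted p = 2.4e-06).

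Ass1 went the other way in value, with 331 and 308 in control and 384 and 412 in DENR KO cells. The pairs did not overlap, as for 21.1% of all genes in this direction, and the log2 difference of 0.32 (SE 0.11) did not pass (limma adjusted p = 0.12). Asl had 481 and 447 in control and 409 and 373 in DENR KO cells, a log2 difference of -0.25 (SE 0.10, adjusted p = 0.25), and such a separation downwards was seen for 20.8% of all genes. Ass1 and Asl catalyze consecutive steps, and their values lay on opposite sides of 0 here.

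Gch1 had 276 and 269.8 in control and 243 and 251 in DENR KO cells, also without overlap, as for 20.8% of all genes downwards. Its log2 difference of -0.14 had a 95% confidence interval of -0.39 to 0.10 (limma adjusted p = 0.70), so a fall of the size seen for Nos2 lies outside that interval. Arg2 was covered by 2 and 2 reads in control and by 3 and 5 in DENR KO cells, too few for a comparison.

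**Figure D2:**
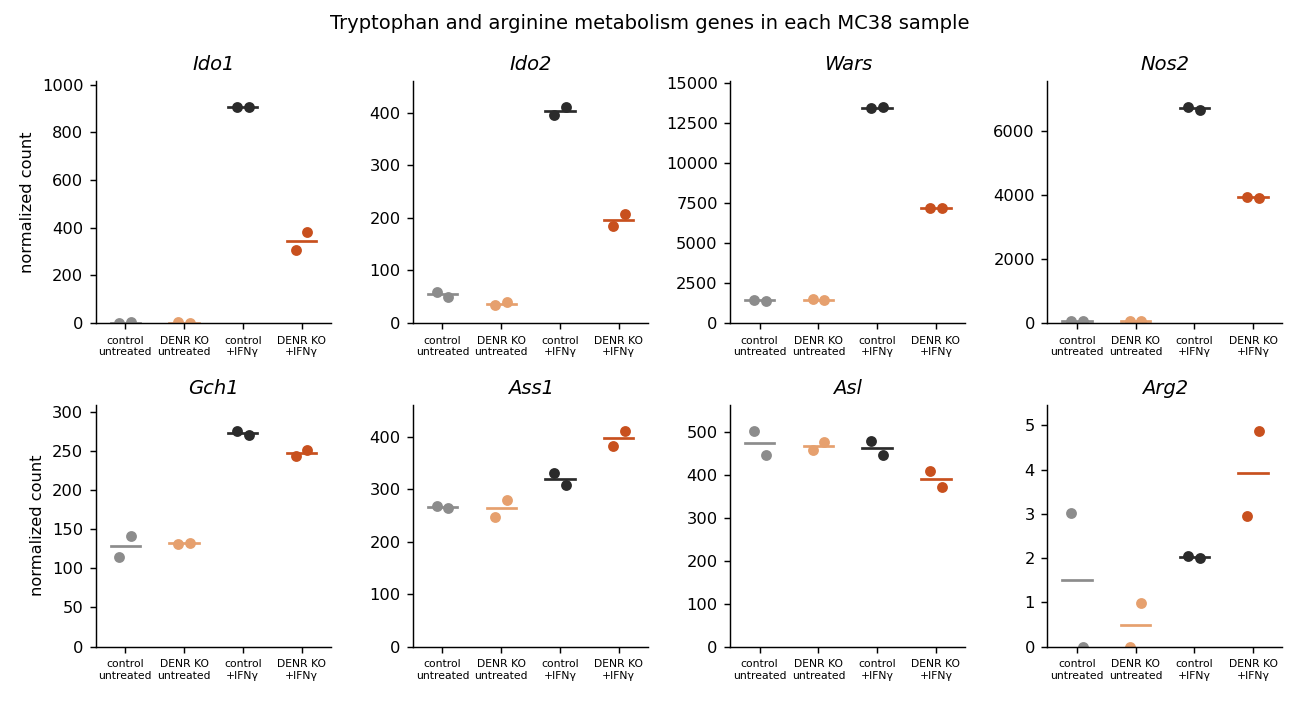
Each panel shows 1 gene, with the normalized count of every sample as a point and the mean of each pair as a bar, on a linear axis that starts at 0 and differs between panels. With IFNγ, both DENR KO samples sit below both control samples for Ido1, Ido2, Wars, Nos2, Gch1 and Asl, as for 20.8% of all genes tested. The untreated samples of Ido1 and Nos2 lie close to 0 on the scale of the treated ones.

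Without IFNγ, none of the 6 genes tested was called. Wars had normalized counts of 1452 and 1374 in control and of 1489 and 1403 in DENR KO cells. The pairs overlapped, and the log2 difference of 0.03 had a 95% confidence interval of -0.11 to 0.18, which leaves out a fall of the size seen with IFNγ. Nos2 was low, at 47.3 and 63.3 in control and 72.6 and 63.9 in DENR KO cells. Both DENR KO samples were above both control samples, as for 20.4% of all genes in this direction, and the log2 difference of 0.31 (95% confidence interval -0.18 to 0.80) did not pass (limma adjusted p = 0.74). It was 0.10 without control sample 1 and 0.52 without control sample 2.

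Ido2 had 59.4 and 50.01 in untreated control and 33.4 and 39.3 in untreated DENR KO cells. The DENR KO samples were lower without overlap, as for 19.6% of all genes in this direction, and the log2 difference of -0.58 (95% confidence interval -1.14 to -0.02) did not pass the test (limma adjusted p = 0.53). Ido1 was covered by 2 reads in all of the untreated control samples and by 2 in all of the untreated DENR KO samples, too few to compare the genotypes. Ass1 (268 and 264 in control, 248 and 279 in DENR KO), Asl (504 and 448 against 459 and 479) and Gch1 (115 and 141 against 131 and 133) overlapped between the genotypes. Arg2 had 3 and 0 reads in control and 0 and 1 in DENR KO cells. Of the 6 tested genes, 1 had an unadjusted p under 0.05 (Ido2, 0.044), and edgeR and DESeq2 on the recovered reads also called 0. Over all 13998 genes tested untreated, limma called 0.15% lower and 0.429% higher. Of these 13998, 524 were lower and 771 higher with an unadjusted p under 0.05.

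Whether the effect of DENR loss differed between the treatments was tested as the difference of the log2 differences (with IFNγ minus untreated), which does not depend on the separate normalization of the tables. It was called for Wars, at -0.94 (SE 0.080, limma adjusted p = 6.9e-07), and for Nos2, at -1.08 (SE 0.16, limma adjusted p = 6.6e-04). These were 2 of the 7 genes tested, beside 0.429% of all 13998 genes called in that direction and 0.0214% in the other. By this test, the effect of DENR loss on Wars and Nos2 mRNA was more negative with IFNγ than without it.

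Ido2 differed by -0.46 (95% confidence interval -0.98 to 0.05, limma adjusted p = 0.93). A weaker untreated effect on Ido2 was thus not shown, and the interval holds both no difference and one as large as that of Wars. For Ido1 the difference of -1.39 had an interval from -3.41 to 0.63 (limma adjusted p = 0.99), with 2 reads per genotype in untreated cells. It ran from -0.59 to -2.19 when single untreated samples were left out, being -0.59 and -2.19 without control samples 1 and 2 and -0.61 and -2.17 without DENR KO samples 1 and 2. Ass1 (0.33, adjusted p = 0.86), Asl (-0.23, 0.98) and Gch1 (-0.20, 0.995) were not called.

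**Figure D3:**
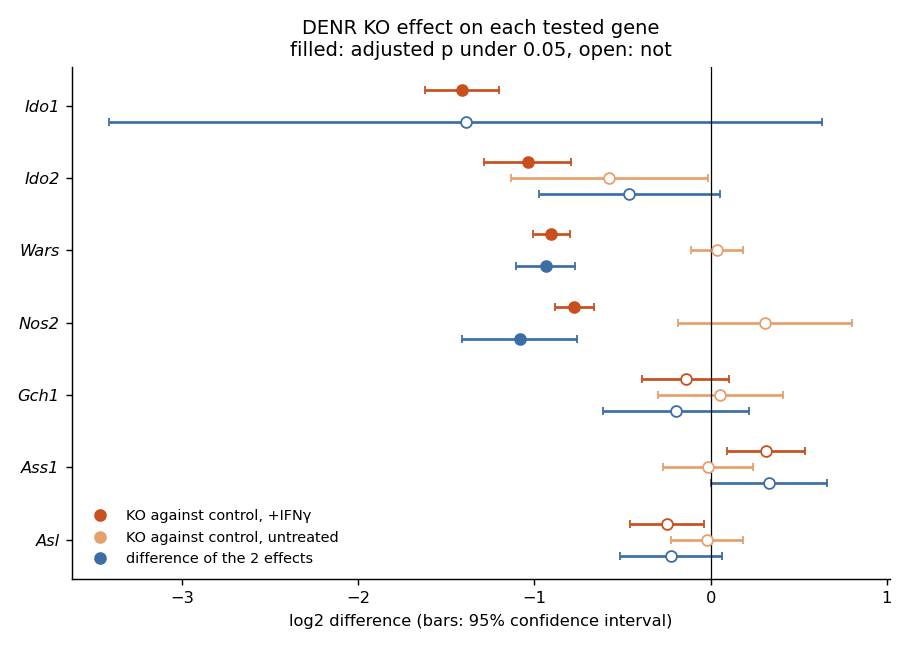
Points are log2 differences and bars their 95% confidence intervals, for DENR KO against control with IFNγ (dark orange), untreated (light orange) and for the difference of these effects (blue), with filled points for an adjusted p under 0.05. With IFNγ the filled points are Ido1, Ido2, Wars and Nos2, and among the differences they are Wars and Nos2. Ido1 has no untreated point because it had 2 reads per genotype.

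The size of the change with IFNγ can be given within each genotype as a ratio of the mean normalized counts of treated to untreated cells. The tables were normalized separately, so these ratios carry no test. Across 10415 genes averaging 100 or more, the median log2 ratio was -0.08 in both genotypes. Nos2 was 121-fold higher with IFNγ in control and 57.4-fold higher in DENR KO cells. The ratios of the single sample pairs ran from 105 to 142 in control and from 53.7 to 61.6 in DENR KO cells, without overlap. How often such ranges separate over all genes was not counted. Wars was 9.54-fold higher in control (9.25 to 9.84 over the pairs) and 4.98-fold higher in DENR KO cells (4.83 to 5.14).

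Ido2 was 7.37-fold higher in control and 5.396-fold higher in DENR KO cells, and the pairs ran from 6.66 to 8.21 and from 4.68 to 6.24. Ido1 had 2 reads untreated and 1784 with IFNγ in control cells, and 2 and 699 in DENR KO cells. Scaled to the total reads on genes, the ratios were 901 (exact 95% interval 249 to 7449) and 357 (98.3 to 2950), intervals that cover counting error only and overlap widely. Gch1 was 2.13-fold higher in control (1.92 to 2.40) and 1.87-fold higher in DENR KO cells (1.83 to 1.91), close to each other. Ass1 was 1.201-fold higher in control (1.15 to 1.25) and 1.51-fold higher in DENR KO cells (1.38 to 1.66), the larger ratio being in DENR KO cells here. Asl stood at 0.974 and 0.834 of the untreated level. No ratio is given for Arg2, which had 8 reads or fewer per group.

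Counted as the gain in RPM (reads scaled to 1 M reads on genes) over untreated cells, DENR KO cells made 38.1% of the control gain for Ido1, 46.4% for Ido2, 48.3% for Wars and 58.5% for Nos2. For Gch1 the share was 81.4%, and for Ass1 it was 253%, from gains of 3.13 RPM in control and 7.92 RPM in DENR KO cells. These shares are descriptions across separately normalized tables and carry no test.

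**Figure D4:**
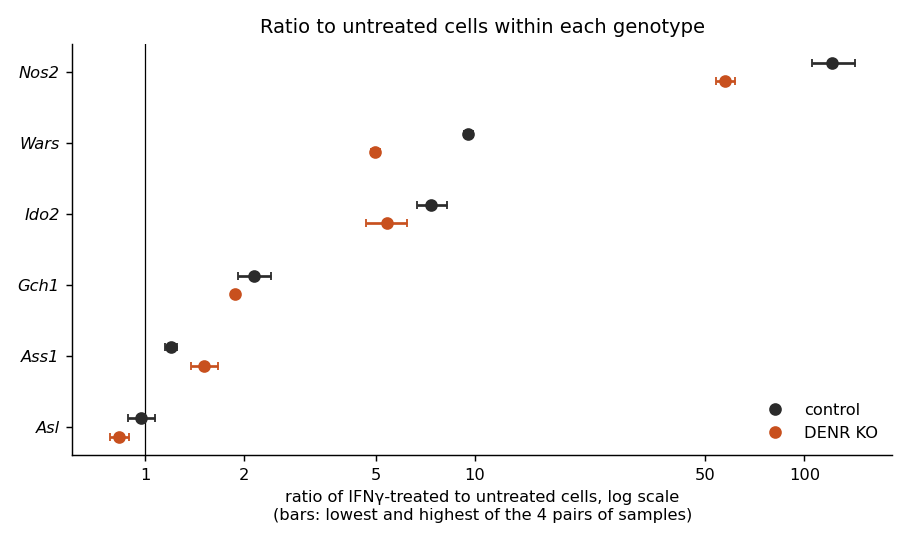
Points are ratios of mean normalized counts in IFNγ-treated cells to those in untreated cells of the same genotype (control black, DENR KO orange) on a log axis, and bars run from the lowest to the highest ratio of the 4 pairs of samples. The DENR KO bars lie below the control bars for Nos2 (57.4 against 121), Wars (4.98 against 9.54), Ido2 and, narrowly, Gch1. They lie above the control bars for Ass1, and the bars of Asl overlap. How often such bars separate over all genes was not counted. The test of the difference between treatments called Nos2 and Wars, and not Ido2, Gch1 or Ass1.

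Levels of different genes can be compared only per length, as RPKM (RPM divided by the deposited gene length in kilobases). In control cells with IFNγ, Wars led at 219 RPKM (SD 0.45, n = 2), ahead of Nos2 at 85.1 (SD 0.92) and Ido1 at 27.8 (SD 0.10). Ass1 (7.43 RPKM), Ido2 (6.22), Asl (5.39) and Gch1 (2.45) followed, and Arg2 was last at 0.080. No neighbors in this order overlapped between the samples. In DENR KO cells with IFNγ, Wars had 118 RPKM, Nos2 50.2 and Ido1 10.6, and the Ido1 samples (9.45 and 11.8) now overlapped those of Ass1 (8.98 and 9.67). Asl (4.58) came before Ido2 (3.05) there, the reverse of their order in control cells.

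In untreated control cells Wars again led, at 22.8 RPKM, followed by Ass1 (6.13), Asl (5.48), Gch1 (1.14), Ido2 (0.837) and Nos2 (0.698). The Ido2 samples (0.905 and 0.768) and the Nos2 samples (0.594 and 0.801) overlapped. Arg2 (0.059) and Ido1 (0.031) could not be ordered. In untreated DENR KO cells the levels were 23.2 for Wars, 6.04 for Ass1, 5.37 for Asl, 1.17 for Gch1, 0.856 for Nos2 and 0.553 for Ido2.

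The rest of the tryptophan pathway was taken from a list of 20 gene names that covers synthesis of kynurenine and its products, tryptophan transport and sensing. It has 16 genes in the tables and 10 that could be tested. With IFNγ, 0 of the 10 were called by limma, edgeR or DESeq2, and 1 had an unadjusted p under 0.05. Their median log2 difference was 0.00, beside a median of 0.00 over all genes. The 6 genes too low to test, named here after their values were seen, were Tdo2, Kmo, Haao, Acmsd, Qprt and Il4i1, which stayed at or below 6.15 normalized counts in every sample. These include the hepatic tryptophan dioxygenase (Tdo2) and the enzymes that carry kynurenine on towards quinolinate (Kmo, Haao) and NAD (Qprt). Slc7a5, which carries tryptophan into the cell, had 3725 to 4277 normalized counts over the 8 samples, and the kynurenine receptor gene Ahr had 844 to 1028, both also picked after their values were seen. Of the 3 tryptophan dioxygenase genes, Ido1 and Ido2 had at least 184 normalized counts in every treated sample, and Tdo2 at most 3.92. Without IFNγ and for the difference between treatments, 0 of the 10 were called by any of the 3 tools, and 1 and 0 had an unadjusted p under 0.05. Of all 13928 genes tested with IFNγ, 899 were lower and 970 higher with such a p. Untreated, these were 524 and 771 of 13998.

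For arginine, nitric oxide and polyamines the list has 31 names, 28 genes in the tables and 22 tested with IFNγ. Azin2, an antizyme inhibitor that promotes ornithine decarboxylase activity and polyamine synthesis, was the 1 gene called by limma, and it was lower. It had 678 and 566 normalized counts in control and 499 and 475 in DENR KO cells with IFNγ. Its log2 difference of -0.35 passed narrowly with limma (adjusted p = 0.048), DESeq2 called 0 genes of this list, and edgeR called 2, Azin2 (adjusted p = 0.039) and Sat1, a polyamine acetyltransferase (log2 difference -0.26, adjusted p = 0.048 by edgeR and 0.053 by limma). With the replicate block 3 were called, these and Gatm, which was higher. Of the 22, 13 lay below 0, with a median log2 difference of -0.02. Untreated and for the difference between treatments, 0 of 23 were called by limma, edgeR or DESeq2, and 4 and 1 had an unadjusted p under 0.05. Of all 13998 genes, 524 were lower and 771 higher with such a p untreated, and 454 and 350 for the difference.

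The other nitric oxide synthases were named after their values were seen. With IFNγ, Nos2 had 50.1 to 85.8 RPKM over the samples of both genotypes, against 0.136 to 0.254 for Nos3 and at most 0.015 for Nos1. Untreated, Nos2 had 0.594 to 0.912 RPKM and Nos3 0.184 to 0.290. Arg1, the cytosolic arginase, stayed at or below 5.10, as low as Arg2. The cationic amino acid transporter Slc7a1 had 2684 to 3525 normalized counts. Both arginase genes were thus near 0 in all 4 groups.

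Of the 7 other names of the tetrahydrobiopterin pathway, 6 were in the tables and tested. With IFNγ, 0 were called by limma, edgeR or DESeq2 and 0 had an unadjusted p under 0.05, with a median log2 difference of 0.04. Untreated, 0 were called and 2 had an unadjusted p under 0.05, and for the difference between treatments both counts were 0. Of all 13998 genes tested untreated, 524 were lower and 771 higher with such a p.

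Wars was compared with the other cytosolic aminoacyl-tRNA synthetases, which charge the remaining amino acids. All 19 that have a row were tested, and with IFNγ 0 were called by limma, edgeR or DESeq2. Their log2 differences ran from -0.17 to 0.03 with a median of -0.12, and 16 of the 19 were below 0, 8 of them with an unadjusted p under 0.05. Over all genes, 50.1% were below 0 and 6.45% were below 0 with such a p. With the replicate block 10 of the 19 were called, all lower and none beyond -0.17. That fit called 729 of all 13928 genes lower and 726 higher. The value of Wars, at -0.90, lay outside that range. Untreated, the median was -0.07 and 17 of 19 were below 0, with 0 called by any of the 3 tools and 4 with an unadjusted p under 0.05, beside 49.5% and 3.74% of all genes. For the difference between treatments the median was -0.03, with 0 called and 0 with an unadjusted p under 0.05. The ratio of IFNγ-treated to untreated control cells ran from 0.835 (Cars) to 1.42 (Kars) over the 19, against 9.54 for Wars.

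**Figure D5:**
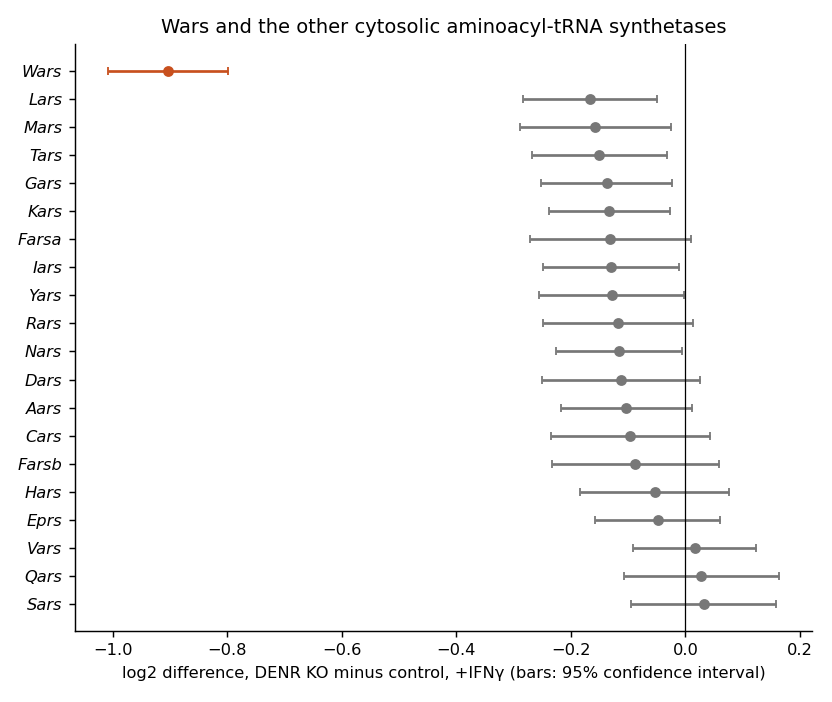
Points are log2 differences between DENR KO and control cells with IFNγ and bars their 95% confidence intervals, for Wars (orange) and the 19 other cytosolic aminoacyl-tRNA synthetases (grey). Wars, at -0.90, is the 1 gene of these that passed the test, and the others lie between -0.17 and 0.03.

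The genes whose profile over the 8 samples lay nearest to each member were found by the root mean square (RMS) difference of the centered log2(RPM + 1) values, among 10325 other named genes averaging 100 or more. This is a description with no test. Nearest to Wars were Dtx3l, Samhd1 and Parp9 (RMS differences of 0.12, 0.16 and 0.19, where the profile of Wars itself has an RMS of 1.43). Dtx3l and Parp9 encode partners in 1 ubiquitin ligase complex, and Samhd1 encodes a dNTP hydrolase that restricts viruses. Nearest to Nos2 were Apol6, Gbp6 and Gbp7 (0.18 to 0.23), the Gbp genes encoding guanylate-binding proteins of antimicrobial defense. Nearest to Ido1 were Gm12185, BC023105 and Cd274 (0.25 to 0.26), of which Cd274 encodes PD-L1. Untreated Ido1 averaged 0.057 RPM in control and 0.054 RPM in DENR KO cells. The 1 added to RPM thus sets its untreated values in this profile, and Ido1 reached the mean of 100 through its treated samples only. Nearest to Ido2 were Nod1, Crem and Mndal (0.13 to 0.18), Nod1 encoding a sensor of bacterial peptidoglycan. Trim14, Gdnf and Rftn1 lay nearest to Gch1 (0.066 to 0.079). Ass1 and Asl varied little themselves (RMS of 0.25 and 0.12), and Itpripl2 and Strada were their nearest genes.

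Some of these counts may hold reads of other genes, since the handling of strand is not given in the sources used here. Wars (chr12:108860030-108894174, minus strand) overlaps Wdr25 and 5033424D13Rik on the other strand and the small nuclear RNA gene Gm22079 on its own. Arg2 overlaps Gm48780 and Vti1b, and Gch1 (chr14:47153895-47189413, minus strand) holds the processed pseudogenes Gm18811 and Gm49134. Denr overlaps the protein-coding gene Gm43518 on its own strand. Nos2 (chr11:78920787-78960254, plus strand), Ido1, Ido2, Ass1 (chr2:31470207-31520672, plus strand) and Asl (chr5:130011258-130029247, minus strand) overlap no other annotated gene.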

How the data were processed

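The authors deposited 1 table per treatment with a normalized signal per sample (reads on a gene divided by a size factor), their group means and their own fold changes and p-values, which were not used. The submitters' processing notes name HISAT2 2.0.5, StringTie 1.3.3b, featureCounts 1.5.0-p3, DESeq2 1.20.0 and mm9. The positions are however those of GRCm38: 95.4% of 23619 matched genes had the position of GENCODE M21. All values (100%) came out as whole reads within 0.01 reads, in each sample, so reads were recovered. The top 10 genes held 4.10% to 4.45% of the reads. Counting error limits low genes.

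Groups came from the genotype and treatment labels. DENR KO was compared with control within each table with limma 3.58.1 (R 4.3.3, trend and robust) on log2(value + 1), keeping genes averaging 10 or more, with Benjamini-Hochberg adjustment. The difference between treatments was fitted over all 8 samples. edgeR 4.0.16 and DESeq2 1.42.0 on recovered reads, pseudocounts of 0.5 and 4, no filter, median centring, a log2 limit of 0.5, a replicate block, a shared spread and leaving out each sample were alternatives. Simulated counts were first used to try limma with and without the replicate block, edgeR and DESeq2. The other alternatives were not tried on them.

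The members and gene lists were chosen with earlier results of these data known. All members are given in full, list genes were named when called in a table or in the difference between treatments, and for each member with a mean of at least 100 the 3 genes of nearest profile were named. uORFs were read from GENCODE M21 transcripts and promoters from RefSeq.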

Additional observations from a re-analysis of the deposited data

Results flagged for a closer look

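The effect of DENR loss differed between IFNγ-treated and untreated cells, by the test of that difference itself, for 2 of the genes described. For Wars the log2 difference with IFNγ minus that without it was -0.94. For Nos2 it was -1.08. The groups have 2 samples each, too few for a check of outlying samples.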

How the results depend on the processing

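The calls of Wars, Nos2 and Ido2 with IFNγ and those of Wars and Nos2 for the difference between treatments held in all alternatives run. Ido1 with IFNγ lost its call when the spread was shared over all 8 samples (adjusted p = 0.39) and kept it in the others (adjusted p over the 14 fits from 4.5e-37 to 0.39). Ass1 with IFNγ gained a call, higher in DENR KO cells, with the replicate block, as did 10 of the 19 other synthetases, all lower (for Ass1 adjusted p = 0.029, the lowest of a range up to 0.67). Over all genes, the 565, 81 and 63 calls (with IFNγ, untreated, and for the difference) became 215 and 30 for the first 2 when a log2 difference beyond 0.5 was required, by construction, and 345 and 50 with DESeq2, where the cause was not tested. The replicate block gave 1455, 257 and 102 calls. The labels do not say whether samples with the same number belong together. Their deviations correlated over genes at 0.22 with IFNγ and 0.047 untreated, and with 2 samples per group this cannot settle it. Leaving out 1 sample gave 427 to 648, 35 to 91 and 37 to 93 calls, the lowest being 35 without untreated control sample 2, and 37 and 39 without control sample 2 with IFNγ and untreated DENR KO sample 1. The members called stayed at 4, 0 and 2. With 1 sample left out, the untreated value of Nos2 ran from 0.10 to 0.52 and the difference between treatments of Ido1 from -2.19 to -0.59, that of Gch1 from -0.34 to -0.050 and that of Asl from -0.31 to -0.14, none called. Small untreated values of uncalled genes changed sign when 1 sample was left out: Wars ran from -0.0092 to 0.077, Ass1 from -0.099 to 0.069, Asl from -0.10 to 0.065 and Gch1 from -0.092 to 0.20. Ratios from reads scaled to the total on genes moved by less than the spread of the samples.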
